A study of Mus musculus with 2 samples.

Results

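MHC class I presentation was described here by 10 genes chosen by name: *B2m*, *H2-K1*, *H2-D1*, *Tap1*, *Tap2*, *Tapbp*, *Psmb8*, *Psmb9*, *Psmb10* and *Nlrc5*. All 10 were among the 24022 genes tested on the arrays, with 12 probes and 31 spots per array. They were selected with the ratios of these arrays already known, so their values are a description and carry no test. The arrays compared mouse embryonic stem cells (mESCs) of the genotype AIMP3f/f;cre-ERT2, in which a drug-activated Cre recombinase deletes the loxP-flanked *AIMP3* alleles. AIMP3-depleted cells had 4 days of 2 μM 4-hydroxytamoxifen (4-OHT) in medium with LIF, and control cells of the same genotype had ethanol for as long, so the loxP alleles and the Cre were common to both groups. RNA of 2 AIMP3-depleted replicates was labelled with Cy5, each on its own array, and 1 pool of the control RNA was labelled with Cy3 and used on both arrays. The labels do not say that the replicates were separate cultures, so their spread may be technical, and no label gives the number of cell clones. The labels give MEF feeder layers as the usual culture of these cells, while the study's methods state that drug treatment took place in medium conditioned by MEFs.

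MHC class I molecules carry peptides from proteins made inside a cell to its surface, where cytotoxic T cells and natural killer cells read them. A heavy chain pairs with β2-microglobulin in the endoplasmic reticulum, and a loading complex fits it with a peptide that the proteasome has cut and the TAP transporter has brought in. Embryonic stem cells are known for low surface MHC class I, which interferon-γ raises, and NLRC5 is the transactivator that works through the S, X and Y boxes of class I promoters.

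*Eef1e1* encodes AIMP3, a scaffold protein of the complex that gathers several tRNA synthetases. It fell on both arrays, with log2 ratios of AIMP3-depleted over control of -0.90 and -0.90 and an adjusted p of 4.765e-05 by limma. The median signal over background of the 4 array channels lay between 2.68 and 3.31, no spot was saturated, and all tested genes together had a median log2 ratio of 0.02. With a threshold of more than 1.5-fold and an unadjusted p under 0.05 in limma, 1328 genes were higher in AIMP3-depleted cells (5.53%) and 190 were lower (0.791%). These p-values leave out the spread between control cultures, because the control was 1 pool. The dyes were not swapped, so depletion and a gene-specific difference between Cy5 and Cy3 cannot be told apart for any ratio below. Nor can a change in the number of cells of a type be told apart from a change in RNA per cell in such bulk RNA.

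The RefSeq promoter windows of the members (GRCm38.p6, 250 bases before to 50 bases after the transcription start) are shown for 4 genes whose windows share sequence or motifs, since their ratios are set side by side below. Windows were found for 8 of the 10 genes, all but *Tap2* and *Nlrc5*, and the first of 2 windows of *H2-K1* is printed. Capitals mark matches on either strand to 5 short motifs. These are the interferon-stimulated response element core (GAAANNGAA), the GAS element (TTCNNNGAA), the κB site (GGGNNTTCC), the X2 box core (TGACG) and the Y box (CCAAT, or ATTGG on the other strand). No 2 matches overlap in the windows shown.

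B2m (chr2:122147437-122147736, plus strand): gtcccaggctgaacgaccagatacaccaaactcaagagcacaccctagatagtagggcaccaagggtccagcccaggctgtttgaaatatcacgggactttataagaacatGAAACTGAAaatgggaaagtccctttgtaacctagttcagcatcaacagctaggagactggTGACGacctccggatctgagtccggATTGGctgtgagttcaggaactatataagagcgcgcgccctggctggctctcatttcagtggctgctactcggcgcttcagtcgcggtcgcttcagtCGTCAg
H2-K1 (chr17:34000284-34000583, minus strand): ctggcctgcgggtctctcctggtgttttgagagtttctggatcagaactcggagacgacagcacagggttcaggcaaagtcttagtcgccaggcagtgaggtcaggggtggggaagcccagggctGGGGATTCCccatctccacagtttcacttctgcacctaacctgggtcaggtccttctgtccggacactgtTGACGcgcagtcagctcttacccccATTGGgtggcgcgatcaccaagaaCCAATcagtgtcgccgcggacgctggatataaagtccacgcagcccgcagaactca
H2-D1 (chr17:35262844-35263143, plus strand): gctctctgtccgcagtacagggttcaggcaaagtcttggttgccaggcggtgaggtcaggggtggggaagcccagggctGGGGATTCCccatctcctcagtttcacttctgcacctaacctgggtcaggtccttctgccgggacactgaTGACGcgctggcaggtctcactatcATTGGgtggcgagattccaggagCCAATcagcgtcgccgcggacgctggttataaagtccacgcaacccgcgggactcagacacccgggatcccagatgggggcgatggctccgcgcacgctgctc
Tap1 (chr17:34187306-34187605, plus strand): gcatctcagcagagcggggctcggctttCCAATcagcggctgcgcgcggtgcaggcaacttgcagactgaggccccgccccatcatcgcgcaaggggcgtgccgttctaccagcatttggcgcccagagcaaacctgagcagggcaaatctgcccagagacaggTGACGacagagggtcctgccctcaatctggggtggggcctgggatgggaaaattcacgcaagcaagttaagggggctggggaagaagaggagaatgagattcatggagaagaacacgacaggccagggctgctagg

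*B2m*, *H2-K1* and *H2-D1* held the X2 core and an inverted Y box on the same strand with their first bases 25 apart. This arrangement, which was noticed in these windows, was present in 31 of 32851 RefSeq promoter windows (0.0944%), and in 3 of the 8 member genes with a window. *H2-K1* and *H2-D1* also held a κB site 70 bases before the X2 core, a motif found in 5.82% of all windows. The interferon-stimulated response element core occurred in *B2m* alone of the 8 genes (8.56% of all windows), and the GAS element in *Psmb8* alone (8.3%). The window of *Psmb9* lies at chr17:34187281-34187580 on the minus strand and shares 275 of its 300 bases with that of *Tap1*, because the 2 genes are transcribed away from starts 225 bases apart. The Y box was in 6 of the 8 genes and 37.4% of all windows, and the X2 core in 5 of 8 and 20.8%. A match is a run of letters and says nothing of binding in these cells.

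*B2m* was higher than 1.5-fold and *Psmb8* was lower than 1.5-fold in AIMP3-depleted cells, and the other 8 members lay between these limits. The share of all tested genes past the threshold was 5.53% in the higher and 0.791% in the lower direction. These counts stand side by side only, because the members were picked on this contrast. Of the 10 members, 6 were above 0 on both arrays and 4 were below 0 on both. The median log2 ratio of the members was 0.13 in replicate 1 and 0.087 in replicate 2, against 0.02 and 0.02 for all tested genes. The SD between the arrays lay between 0.0028 and 0.090 for the members, with a median of 0.035, and was 0.048 at the median of all tested genes.

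**Figure D1:**
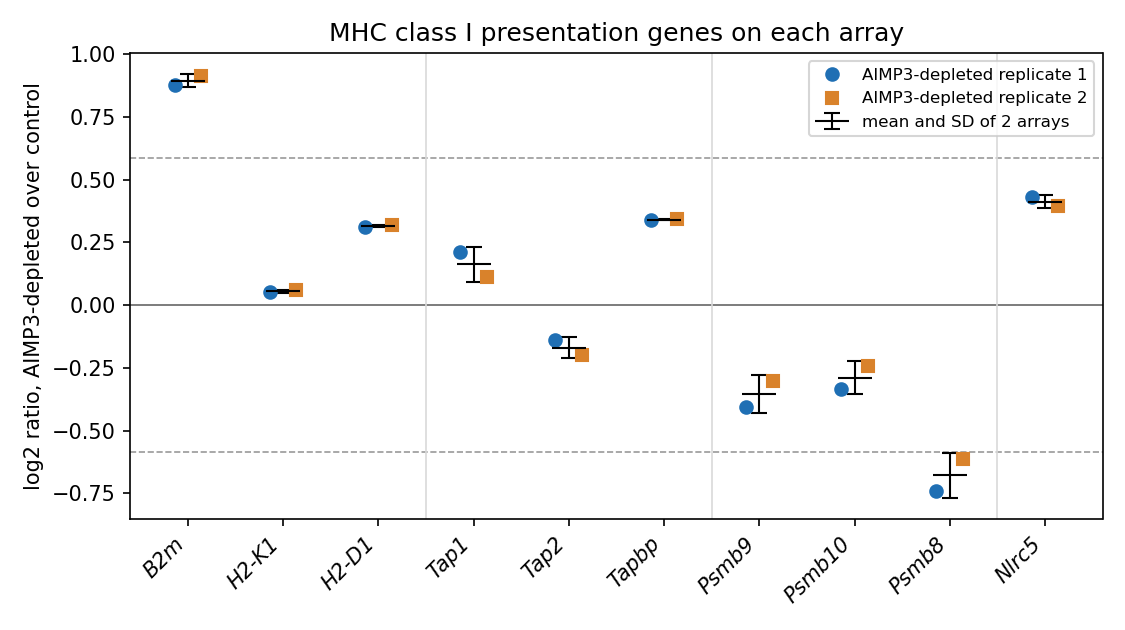
Log2 ratio of AIMP3-depleted over control for the 10 MHC class I presentation genes, grouped by role, on the arrays of replicates 1 and 2 (coloured points), with the mean and SD of both (black). The dashed lines mark 1.5-fold; *B2m* lies above the upper line on both arrays and *Psmb8* below the lower line on both.

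*B2m* encodes β2-microglobulin, the light chain that pairs with class I heavy chains in the endoplasmic reticulum. Its log2 ratio was 0.88 in replicate 1 and 0.91 in replicate 2, with a mean of 0.89 ± 0.026 (SD, n = 2), or 1.86-fold. Feature Extraction's processed signal, after background subtraction and dye normalization, was 6404 in AIMP3-depleted and 3522 in control RNA on the first array, and 6409 and 3392 on the second. The depleted channel thus stood well above the control channel on both arrays, and *B2m* ranked 439 of 24022 genes from the highest ratio. The lowest of its 4 spots had a log2 ratio of 0.85.

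The heavy chain genes did not share the size of the *B2m* ratio. *H2-K1* encodes the classical heavy chain K, and its log2 ratios were 0.052 and 0.060, with a mean of 0.056 ± 0.0061 (SD, n = 2). This probe was printed 10 times on each array. On the array of replicate 1 its spots ran from -0.024 through a median of 0.063 to 0.11, and 8 of 10 were above 0. On the array of replicate 2 the 9 unflagged spots ran from -0.031 through 0.051 to 0.16, and 7 were above 0. Most spots of *H2-K1* thus lay slightly above 0 and a few below it on each array, with an SD among spots of 0.048 and 0.065. With each array centred on its median in place of loess, the mean of this probe was 0.34, while the median of all genes was 0.18. In the authors' deposited table its mean was 0.12. A second *H2-K1* probe gave 0.17 and 0.11.

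*H2-D1* encodes the classical heavy chain D, and its single probe gave log2 ratios of 0.31 and 0.32, with a mean of 0.32 ± 0.0040 (SD, n = 2). Its processed signals were 2436 against 1999 in the control on the first array and 2319 against 1919 on the second. Both arrays were above 0 and nearly equal, short of the 1.5-fold limit. Set beside the promoters printed above, the 3 genes with the same spacing of X2 core and Y box gave mean log2 ratios of 0.89, 0.056 and 0.32. Of the 20 other tested genes with that spacing in a promoter window, 1 rose and 0 fell, beside 5.53% and 0.791% of all tested genes, and their median log2 ratio was 0.03. Heavy chain genes are close in sequence to each other and differ between mouse strains, and how far a probe also bound its neighbours' RNA was not tested.

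**Figure D2:**
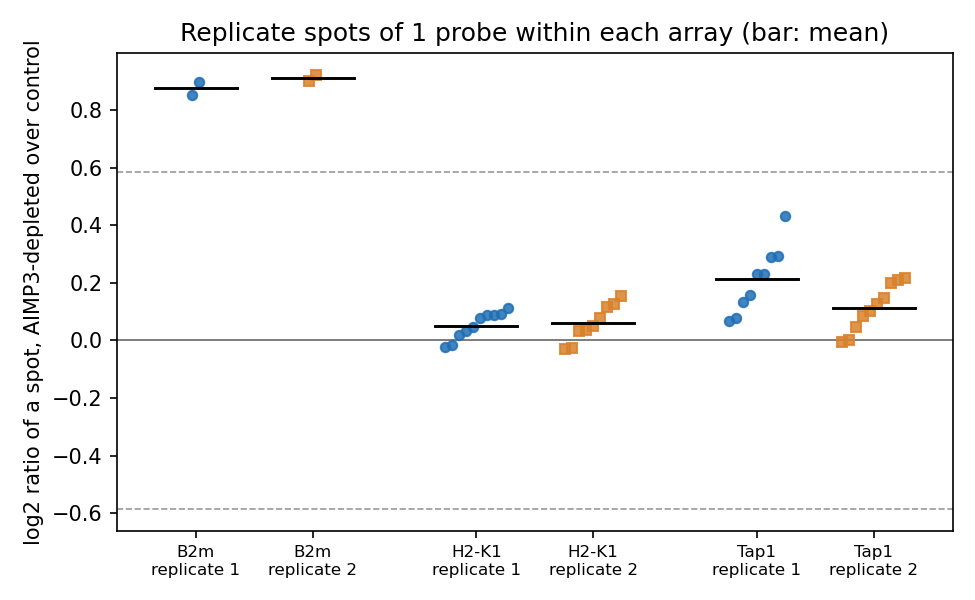
Log2 ratios of the unflagged replicate spots of the *B2m*, *H2-K1* and *Tap1* probes on the arrays of replicates 1 and 2, with the mean of the spots as a bar and 1.5-fold as dashed lines. The *B2m* spots lie apart from 0, while *H2-K1* has spots on both sides of 0 on each array.

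The genes of the peptide loading complex had small ratios of both signs. *Tap1* and *Tap2* together encode the transporter that brings peptides into the endoplasmic reticulum. The log2 ratio of *Tap1* was 0.21 in replicate 1 and 0.11 in replicate 2, with a mean of 0.16 ± 0.070 (SD, n = 2). Its 9 unflagged spots on the first array ran from 0.066 through a median of 0.23 to 0.43, and its 10 spots on the second from -0.0060 through 0.11 to 0.22. All but 1 of these spots were above 0, and the arrays overlapped widely. Its processed signals were low, at 75.03 against 62.72 and 61.61 against 57.78.

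*Tap2* lay on the other side of 0, with log2 ratios of -0.14 and -0.20 and a mean of -0.17 ± 0.043 (SD, n = 2). Its processed signals were 636.8 against 760.3 and 559.9 against 710.6, so the depleted channel was the dimmer on both arrays. The sign of *Tap2* depended on the dye normalization: with each array centred on its median in place of loess the mean was 0.03, while the median of all genes moved to 0.18. *Tapbp* encodes tapasin, which bridges TAP and the heavy chain. Its log2 ratios were 0.34 and 0.34, with a mean of 0.34 ± 0.0028 (SD, n = 2). Its processed signals were 1251 against 1051 and 1219 against 1011, and both arrays stood above 0 by much more than they differed.

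The inducible proteasome subunits were all below 0 on both arrays. *Psmb8*, *Psmb9* and *Psmb10* encode the catalytic subunits that replace *Psmb5*, *Psmb6* and *Psmb7* when interferon-γ turns the constitutive proteasome into the immunoproteasome. *Psmb8* had log2 ratios of -0.74 and -0.61, with a mean of -0.68 ± 0.090 (SD, n = 2), or 1.60-fold lower, and ranked 102 of 24022 from the lowest. Under median centring it was at -0.58, just short of 1.5-fold, so that 0 members were lower. Its processed signals were 52.37 against 111.7 on the first array and 45.27 against 98.51 on the second, well above background in both channels. The ratio of those signals was larger, at -1.09 and -1.12 on the log2 scale. With no normexp offset in place of the offset of 50 the mean was -0.87, and the cause of the remaining difference was not tested.

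*Psmb9* had log2 ratios of -0.41 and -0.30, with a mean of -0.35 ± 0.074 (SD, n = 2), from processed signals of 218.9 against 308.2 and 216.9 against 295.1. *Psmb10* had log2 ratios of -0.34 and -0.24, with a mean of -0.29 ± 0.066 (SD, n = 2), from 4167 against 5276 and 4043 against 4855. In both genes the array of replicate 1 gave the lower ratio, as it did in *Psmb8*. Under median centring *Psmb10* was at -0.024 and *Psmb9* at -0.18, both below the median of all genes of 0.18 under that setting.

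Each inducible subunit had a lower ratio than the constitutive subunit that it replaces. *Psmb5* gave 0.13 and 0.13 with its brightest probe, which put *Psmb8* lower by a difference of -0.87 and -0.74 in log2 ratio. A dimmer *Psmb5* probe gave -0.24 and -0.30, on the other side of 0. *Psmb6* gave 0.10 and 0.039, and *Psmb9* minus *Psmb6* was -0.51 and -0.34. *Psmb7* gave -0.16 and -0.14, and *Psmb10* minus *Psmb7* was -0.18 and -0.10. The differences stayed below 0 with no background subtraction, processed signals, median centring, the mean of all probes and no normexp offset, between -1.15 and -0.61 for *Psmb8*, between -0.70 and -0.40 for *Psmb9* and between -0.16 and -0.14 for *Psmb10*. They have no test, because the inducible subunits were chosen on these ratios.

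**Figure D3:**
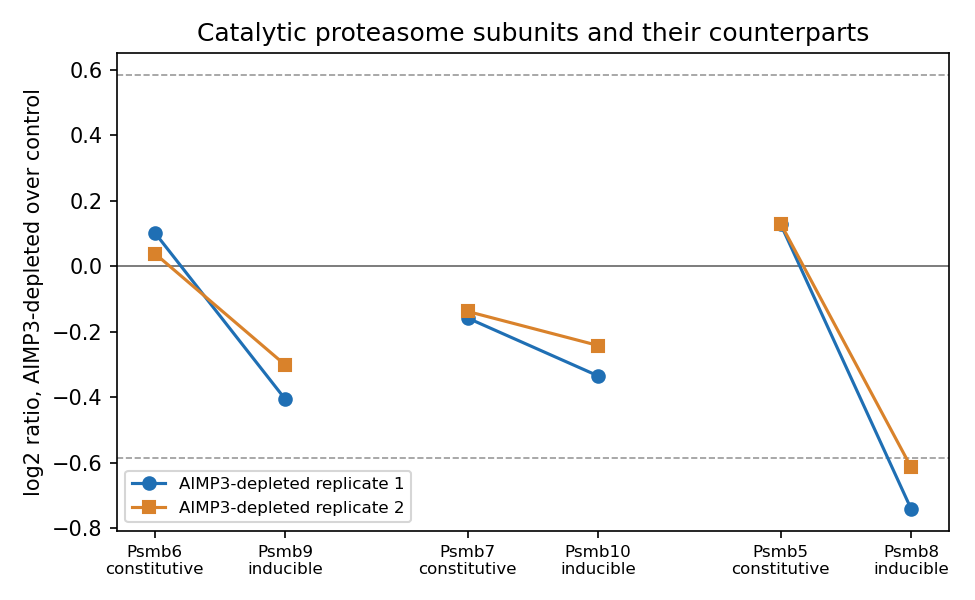
Log2 ratios of AIMP3-depleted over control for the constitutive subunits *Psmb6*, *Psmb7* and *Psmb5* (left of each pair) and the inducible subunits *Psmb9*, *Psmb10* and *Psmb8* that replace them (right), joined for each array. All 6 lines fall from the constitutive to the inducible subunit, and the dashed lines mark 1.5-fold.

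*Psmb9*, *Tap1*, *Psmb8* and *Tap2* are consecutive protein-coding genes on chromosome 17 of GRCm38.p6, inside the MHC. Along the chromosome their mean log2 ratios were -0.35, 0.16, -0.68 and -0.17, so neighbours lay on both sides of 0. *Psmb9* and *Tap1*, which share most of their promoter window, differed in sign on both arrays, with -0.41 and -0.30 for *Psmb9* and 0.21 and 0.11 for *Tap1*, and with processed signals, median centring and no normexp offset too. *H2-K1*, *H2-D1* and *Tapbp* lie at other places in the MHC region of chromosome 17, *B2m* on chromosome 2 and *Psmb10* and *Nlrc5* on chromosome 8.

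*Nlrc5* had log2 ratios of 0.43 and 0.39, with a mean of 0.41 ± 0.027 (SD, n = 2), short of 1.5-fold on both arrays. Its processed signals were 68.84 against 43.79 and 62.29 against 44.44, and the log2 ratio of those signals was 0.65 and 0.49. The mean was 0.56 with no normexp offset, and 0.61 in the deposited table, where *Nlrc5* passed the threshold. A second *Nlrc5* probe was not well above background in the depleted channel of either array and was so in the control channel of 1 array. It gave 0.13 and -0.28 and was not tested, so the level of *Nlrc5* rests on a single probe.

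**Figure D4:**
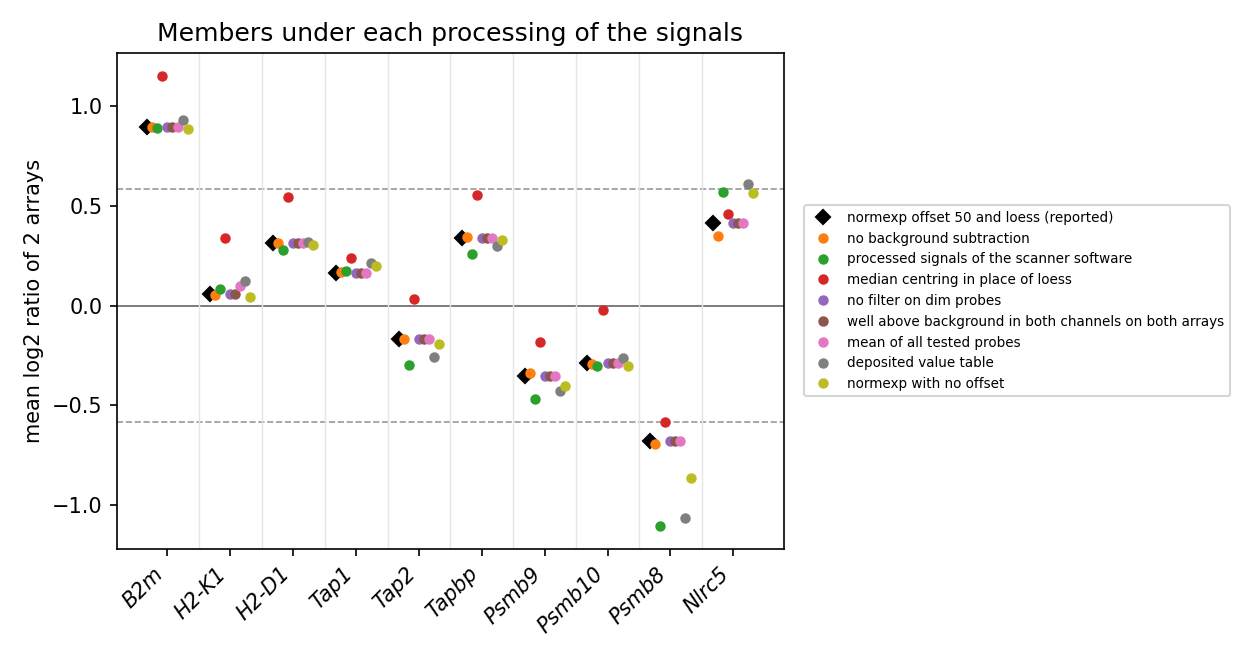
Mean log2 ratio of both arrays for each member under the reported processing (black diamonds) and 8 alternatives (coloured points), with 1.5-fold as dashed lines. *Tap2* is the gene that crosses 0, *B2m* stays above 1.5-fold throughout, and *Psmb8* spreads most, from -1.11 to -0.58.

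The partners of these genes were described by lists of the same pathway, whose counts are read beside the 5.53% of all tested genes that were higher and the 0.791% that were lower. Of the 17 tested genes of peptide supply and loading, 0 passed the threshold in either direction, and their median log2 ratio was 0.16. Under median centring 3 of them were higher. *Calr*, which encodes the chaperone calreticulin of the loading complex, had 0.072 and 0.048. *Erap1*, which trims peptides in the endoplasmic reticulum, was not well above background in either channel and was not tested, with 0.090 and 0.13. Of 15 tested class Ib and other class I heavy chain genes, 0 passed, between -0.42 and 0.19, with a median of -0.03. Of 15 genes of the constitutive core proteasome and its assembly, 0 passed, with a median of -0.08, and 0 of 4 proteasome activators passed, with 1 higher under median centring and without replicate 2. *Psme1* and *Psme2*, which form the activator that interferon-γ induces, had mean log2 ratios of -0.03 and -0.13. The medians of the class Ib, core proteasome and activator lists turned positive under median centring, at 0.14, 0.28 and 0.19, against 0.18 for all genes.

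Among 15 tested transcriptional regulators of class I genes, 1 rose and 0 fell, with a median of 0.08. This is 6.67% of the list, near the 5.53% of all tested genes. *Irf2*, an interferon regulatory factor that binds the interferon-stimulated response element, rose with log2 ratios of 0.67 and 0.53 and an adjusted p of 0.0002471 by limma. This call, the list's only one, was lost with no background subtraction and without replicate 1, with 0 genes higher in each case, while 3 genes of the list were higher under median centring. *Irf1*, the activator that competes for the same element, had -0.21 and -0.14. *Rfx5*, which binds the X box, had -0.12 and -0.04, and *Ciita*, the class II transactivator, had -0.08 and -0.21 with its depleted channel well above background on 1 array. None of these last 3 passed the threshold.

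Interferon receptors and signalling genes gave 0 passing genes of 11 tested, with a median of 0.10. Of 26 interferon-stimulated genes listed, 20 were tested, 2 rose and 1 fell (10% and 5%, against 5.53% and 0.791% of all tested genes), with a median of 0.09. The number higher was 5 in the deposited table and 4 under median centring. *Ifi27* rose with log2 ratios of 1.37 and 1.41 (adjusted p = 3.279e-05 by limma) and *Xaf1*, a pro-apoptotic gene, with a mean of 1.22 ± 0.18 (SD, n = 2; adjusted p = 6.142e-05 by limma). A dimmer *Xaf1* probe gave 0.41 and 0.49, short of 1.5-fold, and its control channel was not well above background on either array. *Bst2*, which encodes the antiviral protein tetherin, fell with -0.87 and -0.93 (adjusted p = 4.924e-05 by limma). The other 17 tested genes did not pass, and *Ifit1*, *Ifit3*, *Rsad2* and *Irf7* were not well above background.

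Of 8 tested genes of MHC class II presentation, 1 rose, *Ctss*, a lysosomal protease, with log2 ratios of 0.86 and 1.01 (adjusted p = 6.644e-05 by limma). The others did not pass, and the median of the list was -0.16. The number higher was 2 under median centring, in the deposited table and without replicate 2, and 1 was lower with processed signals, in the deposited table and with no normexp offset. None of 8 tested genes for ligands of natural killer and inhibitory receptors and for a granzyme inhibitor passed. Their median was 0.31 and all 8 means lay above 0. With processed signals 2 were higher, as in the deposited table, and 1 with no normexp offset. None of 7 genes of the polycomb repressive complex, which is known to silence class I genes in some cells, passed, with a median of -0.20 that became 0.17 under median centring.

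**Figure D5:**
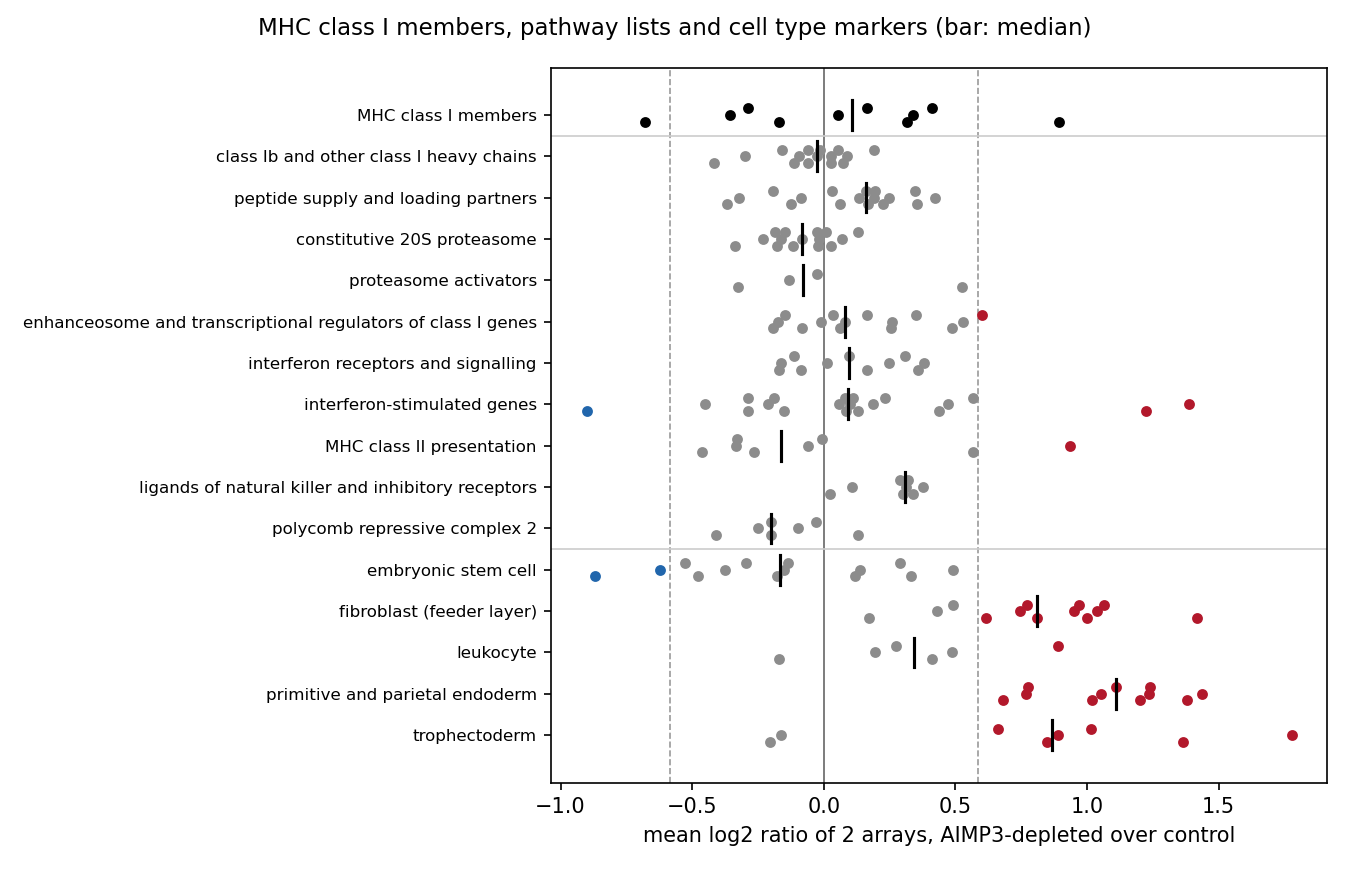
Mean log2 ratio of both arrays for the members (black), 10 lists of the pathway and 5 lists of cell type markers, 1 point per tested gene, with the list median as a bar and 1.5-fold as dashed lines. Red points rose and blue points fell past 1.5-fold with an unadjusted p under 0.05 in limma. The pathway lists lie mostly inside the dashed lines, while most of the fibroblast, endoderm and trophectoderm markers lie to the right of them.

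Most tested markers of fibroblasts, endoderm and trophectoderm rose, as did *B2m*. The marker counts are read beside the 5.53% of all tested genes that were higher and the 0.791% that were lower. Of 13 tested fibroblast markers, 10 rose and 0 fell, with a median log2 ratio of 0.81, and their summed processed signal was 32790 and 33330 in AIMP3-depleted RNA against 15680 and 15580 in control RNA. *Vim* at 1.42 and *Col1a1* at 1.06 were the highest of the list, while 3 tested markers did not pass, with the lowest at 0.17. *Lum* was not well above background. All 11 markers of primitive and parietal endoderm rose, with a median of 1.11 and summed signals of 183500 and 191400 against 92240 and 98730. Of 8 tested trophectoderm markers 6 rose, with a median of 0.87 and summed signals of 89070 and 97820 against 32900 and 34860. Bright genes weigh most in such sums. Of the 6 that rose, *Krt18* was the brightest, with a mean log2 intensity of 16.4 against 13.51 for *Krt8*, and had the highest ratio, at 1.78. *Eomes* at -0.16 and *Tfap2c* at -0.21 did not pass, and *Elf5* was not well above background. Of 6 tested leukocyte markers 1 rose, *Lyz2* at 0.89, with a median of 0.34 and summed signals of 13350 and 12720 against 10450 and 10300, and the defining marker *Ptprc* was not well above background. The number of leukocyte markers higher was 3 under median centring and 2 with no background subtraction, processed signals, the deposited table or no normexp offset. Of 14 embryonic stem cell markers 2 fell, *Fgf4* at -0.87 and *Dppa3* at -0.62, with a median of -0.16 and summed signals of 72390 and 68020 against 89060 and 84930. The means of 5 of these markers lay above 0, up to 0.49, and those of 9 lay below it. Under median centring the median of this list was 0.09, 0 of its genes fell and 1 rose. Their part in the ratio of *B2m*, or of any other member, was not tested.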

How the data were processed

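The authors deposited the Feature Extraction output (version 11.5.1.1) of both arrays, with the spot and background intensity of each channel, processed signals, and a log10 ratio. The authors also deposited a table of log2 ratios made with GeneSpring. This table ran Cy5 over Cy3 like the scanner's signals. Up to a shift of 0.040 and 0.039, 99.8% of its values lay within 0.01 of the log2 ratio of the processed signals, and its column medians were 0.091 and 0.11. Per the labels, Cy5 held AIMP3-depleted RNA.

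Median intensities were corrected with normexp (offset 50) and loess in limma 3.58.1 under R 4.3.3, without controls and flagged spots. The mean of unflagged spots stood for a probe and the brightest probe for a gene. A probe was tested where either channel of each array was well above background (33012 of 55681 probes). Genes were tested by lmFit and eBayes against 0 (1 residual degree of freedom) with Benjamini-Hochberg adjustment over 24022 genes. Accessions were named through RefSeq (GRCm38.p6). The array design is on mm9, so probe coordinates are left out.

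The members, gene lists and tests were chosen with earlier results of these data known. Named were all members, *Eef1e1*, list genes past the threshold and fixed pathway genes, of which some are not reported here; *Eomes* and *Tfap2c* were added for their sign, and *Lum*, *Elf5*, *Ptprc*, *Ifit1*, *Ifit3*, *Rsad2* and *Irf7* were added for their low signal. Alternatives were no background subtraction, processed signals, median centring, other probe filters and probe rules, the deposited table, a normexp offset of 0 (chosen after seeing the data), 2-fold or adjusted p thresholds, and each replicate left out. The steps were checked on simulated data. The number of arrays limits the precision.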

Additional observations from a re-analysis of the deposited data

How the results depend on the processing

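Over 9 ways of processing the signals, in which the probe filters left the members' values as they were, 9 of the 10 members kept their sign and *Tap2* did not, with -0.30 to 0.03. The counts past the thresholds moved more. The genes that were higher, 1328 of all tested, became 2827 under median centring, 2130 in the deposited table and 281 at 2-fold, and the 190 lower genes became 776 with processed signals, 64 under median centring, 617 in the deposited table, 370 with no normexp offset and 17 at 2-fold. The share of higher genes among those past the threshold was 87.5%, and 71.5%, 97.8% and 77.5% with processed signals, median centring and the deposited table. Of the members, 2 were higher in the deposited table (*B2m* and *Nlrc5*, the latter at 0.61), 0 were lower under median centring (*Psmb8* at -0.58), and 0 were higher and 0 lower at 2-fold. The pathway lists, with 4 genes higher and 1 lower, gave 7 and 2 with processed signals, 13 higher under median centring, 10 and 2 in the deposited table, 2 lower with no offset, and 2 and 0 at 2-fold. The median of the members, 0.11, was 0.29 under median centring and 0.17 in the deposited table, while that of all genes moved to 0.18 under median centring. The cause of these moves was not tested. An adjusted p under 0.05 gave the 1328 and 190 of the unadjusted threshold. With replicate 1 or replicate 2 left out, 1 array remained, there was no test, and 1398 and 1323 genes were higher and 253 and 199 lower by fold alone. No paired analysis was possible because the labels give 1 group of replicates and the control is 1 pool. The processed signals of *Psmb8*, *Tap1* and *Nlrc5* were of the size of the added offset, and *Psmb8* moved from -0.68 to -1.11 with processed signals.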
